A study of Homo sapiens with 18 samples.

Results

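The genes described here are 36 genes of squamous differentiation and the cornified envelope, taken by symbol from a table of counts for 41120 gene symbols in 18 libraries. They fall into 7 roles: 11 envelope precursors and plaque proteins, 2 transglutaminases, 4 secreted barrier proteins, 6 protease inhibitors, 4 kallikreins, 7 small calcium-binding proteins and 2 transport proteins. Of the 36, 35 had at least 1 count somewhere and 17 had enough counts to be tested.

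When a keratinocyte leaves the basal layer and matures, it builds a tough protein shell beneath its plasma membrane, the cornified envelope. Transglutaminases cross-link precursors such as involucrin, loricrin, the small proline-rich proteins and envoplakin with periplakin. Kallikrein proteases later cut the junctions between the outermost cells, and cystatins and serpins hold proteases in check. Non-cornifying mucosa of the mouth and throat expresses a part of this programme, and squamous carcinomas of the head and neck keep it to differing degrees. Many of the genes lie together on chromosome 1 in the epidermal differentiation complex, and the kallikreins lie side by side on chromosome 19. In the gene annotation (GENCODE release 29, GRCh38), 13 of the 36 were on chromosome 1 and 8 on chromosome 19.

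The study used FaDu (HPV-negative) and SCC154 (HPV-positive), established squamous carcinoma lines of the human head and neck. Both carried a hypoxia-fate mapping reporter, with which a cell that meets low oxygen turns from red (DsRed) to green (GFP) fluorescence. Red (non-hypoxic) cells were separated by sorting from green (post-hypoxic) cells of dissociated spheroids, and both fractions were kept and passaged in normoxia, so that no library was of cells held in low oxygen. There were 4 FaDu non-hypoxic, 5 FaDu post-hypoxic, 5 SCC154 non-hypoxic and 4 SCC154 post-hypoxic libraries, the last with replicate numbers 2 to 5. Each HPV status was represented by 1 line, so that line and HPV status cannot be told apart. Nothing in the labels says that replicates were separate sorts or cultures, and p-values here measure the spread between libraries alone, which may be technical.

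Levels are given in CPM (counts scaled to library size with TMM factors) from 3′ tags, which read the end of a transcript. Library totals ran from 1654719 to 2503573 counts, and 1 CPM stood for 1.68 to 2.44 counts. Of 9 markers of squamous and basal keratinocytes, 9 had counts in every group, with summed levels of 1635 to 2455 CPM. Of 6 markers of simple epithelium, 5 had counts in every group, with summed levels nearly as high, from 1365 to 2155 CPM. Markers of fibroblasts, endothelium and immune cells summed to at most 5.80, 5.18 and 2.98 CPM, and none of them was tested. The mean correlation of a library with others of its group ran from 0.963 to 0.981, and SCC154 non-hypoxic replicate 1 (0.971) and SCC154 post-hypoxic replicate 3 (0.963) had the lowest of their groups. These did not stand alone, since SCC154 post-hypoxic replicate 4 (0.968) and FaDu non-hypoxic replicate 1 (0.970) were lower than SCC154 non-hypoxic replicate 1. SCC154 non-hypoxic replicate 1 was the lowest of its group for 6 of 12 members at a group mean of at least 10 CPM (PPL, SCEL, ECM1, CSTA, KLK10 and S100A14), and it was the highest for S100A16, CALML3 and LCN2.

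The promoters of the members carried a sequence feature that the choice by symbol did not use. RefSeq promoters (GRCh38.p14, 250 bases before to 50 after the gene start) could be matched for 28 of the 36 members. The AP-1 motif TGANTCA, read on both strands, was present in 11 of the 28 (39.3%), against 7.71% of 35116 promoters of the same length. The letters TATAAA, also read on both strands, were present in 11 of 28 (39.3%), against 11.5% of all promoters. The median promoter had 3.5 CG pairs among the members and 14 among all. The motif shares are descriptions of letters, not of binding. Among the 16 matched members that were too low to test, 8 held the AP-1 motif (50%) and 9 held TATAAA (56.2%). Among the 12 matched members that were tested, 3 held the AP-1 motif (25.0%) and 2 held TATAAA (16.7%). The promoters of 6 members are printed here. IVL encodes involucrin, the archetypal envelope precursor, and was barely detected. SCEL, ECM1 and LCN2 are the 3 tested members with the AP-1 motif. KLK6 and KLK10 are kallikreins of one cluster that differed in opposite directions between the lines, and neither promoter holds either motif. Each is written 5′ to 3′ in the direction of the gene and shows the 250 bases before the start, with AP-1 matches in capitals.
IVL promoter, chr1:152908296-152908545, plus strand: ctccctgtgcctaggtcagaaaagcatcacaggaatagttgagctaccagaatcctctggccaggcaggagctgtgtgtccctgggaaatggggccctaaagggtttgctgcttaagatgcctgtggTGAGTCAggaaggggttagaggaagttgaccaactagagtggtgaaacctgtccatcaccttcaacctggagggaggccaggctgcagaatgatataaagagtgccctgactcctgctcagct
SCEL promoter, chr13:77535456-77535705, plus strand: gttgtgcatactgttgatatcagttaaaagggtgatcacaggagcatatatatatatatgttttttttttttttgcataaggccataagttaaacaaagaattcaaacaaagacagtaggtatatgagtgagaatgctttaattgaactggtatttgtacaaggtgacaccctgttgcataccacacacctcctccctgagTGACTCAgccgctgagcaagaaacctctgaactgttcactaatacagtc
ECM1 promoter, chr1:150507859-150508108, plus strand: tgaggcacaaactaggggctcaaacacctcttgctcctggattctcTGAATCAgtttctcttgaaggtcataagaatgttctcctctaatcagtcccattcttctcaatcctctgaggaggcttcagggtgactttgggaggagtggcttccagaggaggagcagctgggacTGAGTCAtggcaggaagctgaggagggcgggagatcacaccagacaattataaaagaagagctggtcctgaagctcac
LCN2 promoter, chr9:128149203-128149452, plus strand: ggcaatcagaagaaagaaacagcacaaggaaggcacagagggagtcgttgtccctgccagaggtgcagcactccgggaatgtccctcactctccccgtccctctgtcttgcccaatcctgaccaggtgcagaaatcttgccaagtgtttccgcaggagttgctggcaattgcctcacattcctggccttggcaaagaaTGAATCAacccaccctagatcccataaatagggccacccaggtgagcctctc
KLK6 promoter, chr19:50969592-50969841, minus strand: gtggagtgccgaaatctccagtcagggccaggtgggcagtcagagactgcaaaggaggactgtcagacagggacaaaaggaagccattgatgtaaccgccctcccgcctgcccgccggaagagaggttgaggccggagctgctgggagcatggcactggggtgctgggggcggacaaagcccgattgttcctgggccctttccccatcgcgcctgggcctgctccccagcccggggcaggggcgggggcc
KLK10 promoter, chr19:51019862-51020111, minus strand: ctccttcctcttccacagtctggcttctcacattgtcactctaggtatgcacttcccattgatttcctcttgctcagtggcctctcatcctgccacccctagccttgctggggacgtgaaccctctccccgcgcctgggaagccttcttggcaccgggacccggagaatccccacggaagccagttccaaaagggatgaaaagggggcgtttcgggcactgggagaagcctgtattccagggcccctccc
The match lies 123 bases before the start in IVL, 49 in SCEL and 52 in LCN2, and those of ECM1 lie 204 and 78 bases before it.

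Most of the classical envelope programme was near or below the detection limit in both lines, and a smaller set was well expressed. A member was tested where it passed edgeR's filter, as 12291 of all 41120 symbols did. The filter asked for about 4.61 CPM in at least 4 libraries. The 19 members below it had 56 counts or fewer over all 18 libraries and at most 7 counts in any 1 library. Together these 19 summed to 9.22 ± 1.82 CPM (SD, n = 4) in FaDu non-hypoxic, 8.11 ± 0.888 (n = 5) in FaDu post-hypoxic, 12.9 ± 2.60 (n = 5) in SCC154 non-hypoxic and 10.1 ± 4.40 CPM (n = 4) in SCC154 post-hypoxic libraries. All 36 members together summed to 1163 ± 73.65, 1144 ± 50.76, 1503 ± 140.5 and 1594 ± 172.9 CPM in the same order. Nearly all of the signal therefore came from the 17 tested members, and the plot of levels by library shows the division between dark and bright rows. In bulk samples, fewer cells that express a gene and less RNA per cell cannot be told apart.

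**Figure D1:**
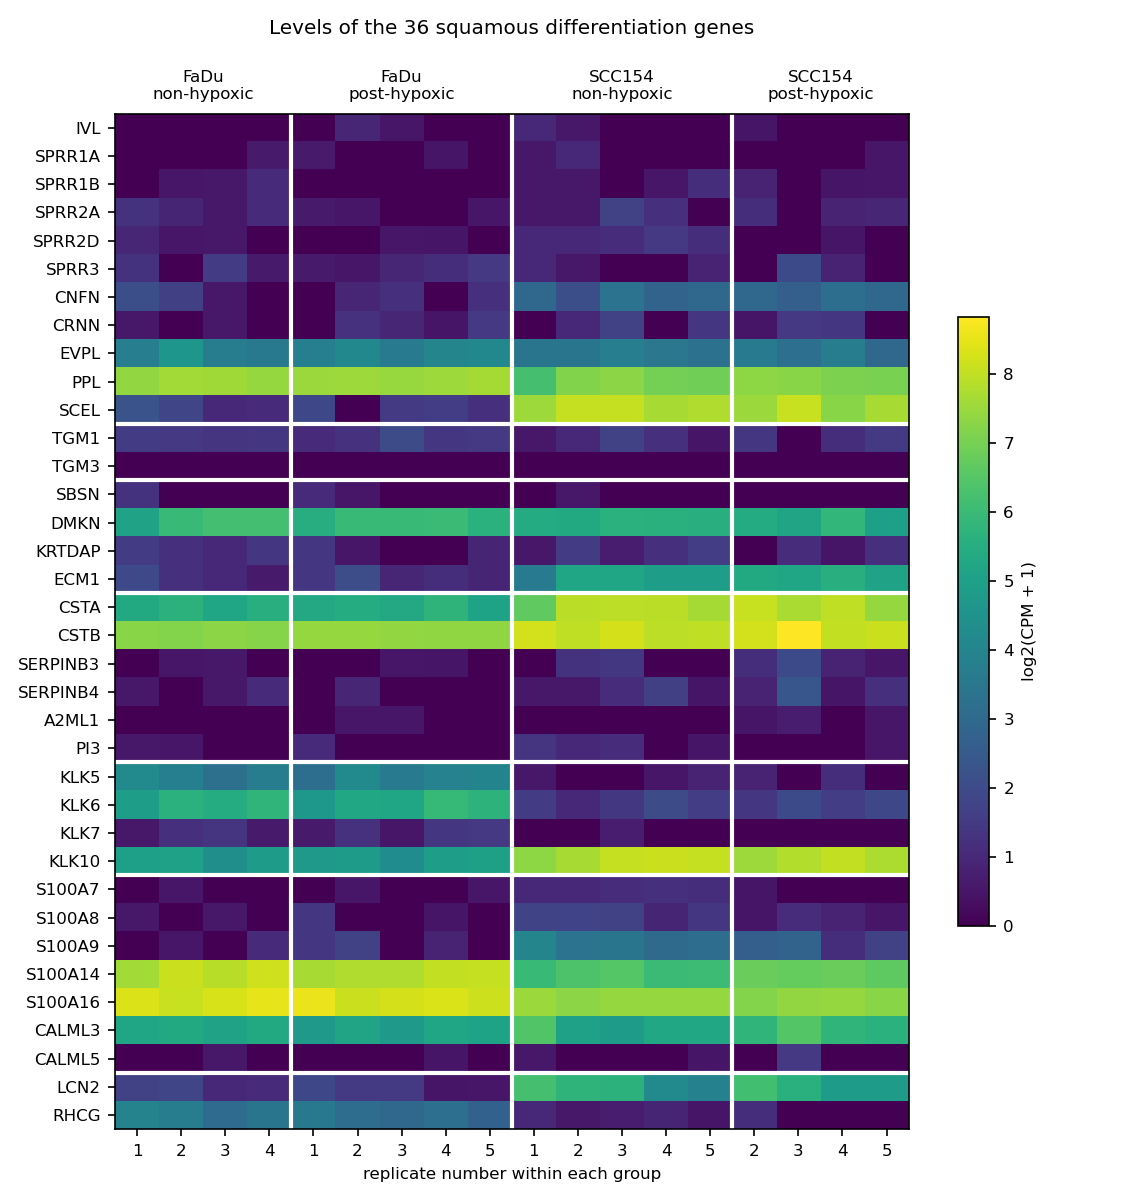
Levels of the 36 genes (rows, ordered by role, white lines between roles) in the 18 libraries (columns, by group and replicate number), as log2(CPM + 1) by colour. The 19 untested genes form dark rows with at most 7 counts in any library, while PPL, CSTB, S100A14 and S100A16 are bright in every group and SCEL, CSTA and KLK10 are brightest in SCC154.

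At least 1 count was seen for 33, 34, 34 and 33 of the 36 members in FaDu non-hypoxic, FaDu post-hypoxic, SCC154 non-hypoxic and SCC154 post-hypoxic cells. At least 10 counts in the group were seen for 18, 20, 22 and 18. A group mean of at least 100 CPM was reached by 4, 4, 6 and 7 members. The filter fell in a gap: CNFN, S100A9 and RHCG were the lowest members inside it, with mean levels over all libraries of 3.84, 3.92 and 4.87 CPM, and TGM1, KRTDAP and S100A8 the highest outside it, with 1.44, 1.01 and 0.867 CPM.

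Among the envelope precursors, 7 of 11 were not tested. IVL had 7 counts in 5 of the 18 libraries. SPRR1A had 7 counts in all, SPRR1B 14, SPRR2A 27, SPRR2D 20 and SPRR3 31, all small proline-rich cross-bridging proteins. CRNN, which encodes the cornulin of the oesophageal and oral surface, had 30. Neither line thus had more than traces of these RNAs at this depth. SPRR1A and SPRR1B, and SPRR2A and SPRR2D, are close copies between which reads can be split, and their totals are uncertain singly.

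Neither transglutaminase could be tested. TGM1, the keratinocyte enzyme anchored to the membrane, had 56 counts, in 17 of 18 libraries, and its group means were 1.69 ± 0.173 and 1.81 ± 0.807 CPM in FaDu non-hypoxic and post-hypoxic cells and 1.095 ± 0.764 and 1.17 ± 0.818 CPM in SCC154. TGM3, the enzyme of the late envelope, had no count in any of 18 libraries, where 3 counts would have been 0.078 CPM. Of the other roles, SBSN and KRTDAP among the secreted proteins, SERPINB3, SERPINB4, A2ML1 and PI3 among the inhibitors, the protease KLK7, and the calcium-binding S100A7, S100A8 and CALML5 were untested, with 5 to 38 counts each in all.

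A few of these low members had uneven counts. S100A8, which pairs with S100A9 to form calprotectin, had 20 counts over the 5 SCC154 non-hypoxic libraries and 2 over the 4 FaDu non-hypoxic ones, a ratio per sequenced count of 7.83 with an exact 95% counting interval of 1.90 to 69.1. S100A7 (psoriasin) had 12 against 1, a ratio of 9.39 with an interval of 1.39 to 401. Neither was uneven to that degree in post-hypoxic cells, where S100A8 had 6 counts in SCC154 and 4 in FaDu, and S100A7 had 1 and 2. In post-hypoxic cells SERPINB4 had 13 counts in SCC154 against 2 in FaDu, a ratio of 8.09 with an interval of 1.83 to 73.9, though SCC154 post-hypoxic replicate 3 alone gave 7 of the 13. SERPINB3 had 11 against 2 there, a ratio of 6.85 with an interval of 1.49 to 63.6. SERPINB3 and SERPINB4 are close copies between which reads can be split. KLK7, the chymotrypsin-like stratum corneum protease, had 13 counts in FaDu post-hypoxic and 0 in SCC154 post-hypoxic libraries, so that it was at least 3.48-fold lower in SCC154 (against 3 counts over the group). Between the SCC154 populations, SPRR2D had 13 counts in non-hypoxic and 1 in post-hypoxic libraries, a ratio of 10.8 with an interval of 1.62 to 459. S100A7 had 12 and 1 there, a ratio of 9.96 with an interval of 1.47 to 426. These intervals cover counting error only, and the genes were named after their counts were seen.

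The comparison of non-hypoxic cells of the lines asked how the programme differed between them. The largest differences were in SCEL, S100A9, LCN2 and ECM1, higher in SCC154, and in KLK5, KLK6 and RHCG, higher in FaDu. By edgeR (quasi-likelihood test, p-values adjusted over 12291 genes by Benjamini-Hochberg, threshold 0.05), 15 of the 17 tested members passed, 8 higher and 7 lower in SCC154. The background was large, since 68.9% of all tested genes passed (34.5% higher and 34.5% lower). Of the 17, 5 passed the count filter through SCC154 alone (CNFN, SCEL, ECM1, S100A9 and LCN2) and 3 through FaDu alone (KLK5, KLK6 and RHCG), which favours a difference. Of the 9 that passed it in both lines, 7 were called, 3 higher and 4 lower, against 65.1% of the genes that did so. The members' share was thus near that of other genes, and they did not move in one direction. The median log2 difference over the 17 was 0.25, against -0.01 over all tested genes.

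**Figure D2:**
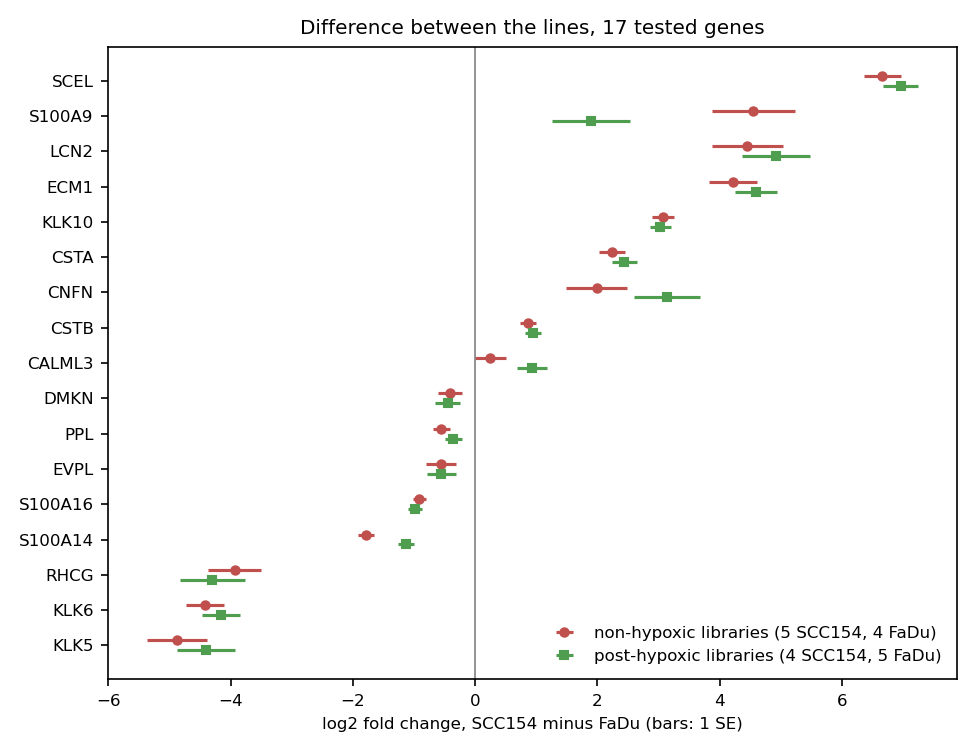
Log2 fold change (x axis) of SCC154 minus FaDu for the 17 tested genes (y axis), from edgeR, in non-hypoxic (red circles) and post-hypoxic libraries (green squares), with bars of 1 standard error. SCEL stands at 6.66 and 6.96 and KLK5 at -4.88 and -4.40, and the genes spread to both sides of 0.

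The plaque and precursor proteins went in both directions. SCEL encodes sciellin, a precursor of the envelope of stratified epithelia, and lies at chr13:77535674-77645263. Its level was 3.80, 2.61, 0.998 and 1.08 CPM in the 4 FaDu non-hypoxic libraries and 183, 267, 261, 204 and 218 CPM in the 5 of SCC154. The lines were far apart, and SCEL had the widest difference of the 17 (log2 fold change 6.66, SE 0.30, adjusted p = 5.83e-15 by edgeR). CNFN, the envelope protein cornifelin, was at 3.33, 2.18, 0.499 and 0 CPM in FaDu and at 6.91, 3.38, 9.20, 6.07 and 6.63 CPM in SCC154. The lowest SCC154 library stood just above the highest of FaDu, and the difference was 1.99 (SE 0.50, adjusted p = 0.00129 by edgeR).

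PPL and EVPL encode periplakin and envoplakin, which together form the scaffold on which the envelope is laid down. PPL was among the most abundant members, at 168, 192, 188 and 172 CPM in FaDu and 73.5, 142, 155, 126 and 119 CPM in SCC154. All SCC154 libraries lay below all of FaDu, with SCC154 replicate 1 lowest, and the log2 difference was -0.55 (SE 0.14, adjusted p = 0.0013 by edgeR). EVPL was at 12.8, 24.0, 11.98 and 10.8 CPM in FaDu and 9.87, 9.66, 12.7, 10.4 and 8.71 CPM in SCC154. The groups overlapped, and the call at -0.56 (SE 0.24, adjusted p = 0.0393 by edgeR) rested on FaDu replicate 2. Without that library the difference was -0.22 with an adjusted p of 0.39 by edgeR. The call was also lost without SCC154 replicate 1, 2, 4 or 5. Genes of the opposite strand cover the 3′ end of EVPL (CDK3 and TEN1-CDK3), with a mean of at most 0.0504 CPM.

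Of the secreted proteins, ECM1 (extracellular matrix protein 1, a glycoprotein of skin and mucosa, chr1:150508062-150513789) was at 2.85, 1.31, 0.998 and 0.539 CPM in FaDu and 11.8, 35.3, 35.1, 29.5 and 29.0 CPM in SCC154. SCC154 replicate 1 was low but still above every FaDu library, and the log2 difference was 4.22 (SE 0.39, adjusted p = 1.41e-09 by edgeR). DMKN, dermokine, was at 33.3, 61.4, 71.9 and 72.3 CPM in FaDu and 42.5, 40.1, 48.9, 48.1 and 44.8 CPM in SCC154. The groups overlapped through FaDu replicate 1, and the difference of -0.41 (SE 0.19) missed the threshold (adjusted p = 0.0634 by edgeR), although it passed without that library (adjusted p = 0.00245) and also without SCC154 post-hypoxic replicate 4.

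Both cystatins were higher in SCC154. CSTA, which encodes the cysteine protease inhibitor cystatin A that is also built into the envelope, was at 39.9, 50.1, 35.9 and 46.9 CPM in FaDu and 101, 239, 248, 242 and 197 CPM in SCC154. The lowest SCC154 value, again replicate 1, was above every FaDu value, and the log2 difference was 2.24 (SE 0.21, adjusted p = 2.79e-09 by edgeR). CSTB, its more widely expressed relative cystatin B, was at 151, 146, 155 and 148 CPM in FaDu and 301, 249, 307, 248 and 252 CPM in SCC154. FaDu libraries were closely spaced and all lower, with a difference of 0.86 (SE 0.13, adjusted p = 3.23e-06 by edgeR).

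The kallikreins split by line. KLK6 (chr19:50958631-50969673), a trypsin-like secreted protease, was at 29.0, 48.3, 43.4 and 53.4 CPM in FaDu and 1.97, 0.967, 1.73, 3.04 and 2.07 CPM in SCC154. KLK5 (chr19:50943303-50953093), the trypsin-like protease that activates others of the family in the stratum corneum, was at 17.1, 13.1, 8.49 and 12.4 CPM in FaDu and at 0.494, 0, 0, 0.434 and 0.829 CPM in SCC154. Both were low in every SCC154 library and did not overlap between the lines. The log2 differences were -4.41 for KLK6 (SE 0.31, adjusted p = 1.2e-11) and -4.88 for KLK5 (SE 0.49, adjusted p = 7.41e-09), both by edgeR. KLK10 (chr19:51012739-51020175), a secreted member of the same family, ran the other way, at 30.4, 31.8, 20.0 and 27.5 CPM in FaDu and 158, 202, 264, 277 and 263 CPM in SCC154. Its difference was 3.08 (SE 0.18, adjusted p = 7.82e-13 by edgeR), without overlap. Antisense genes span the 3′ ends of KLK6 and KLK7, and with the strand setting unknown their reads could not be told apart.

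**Figure D3:**
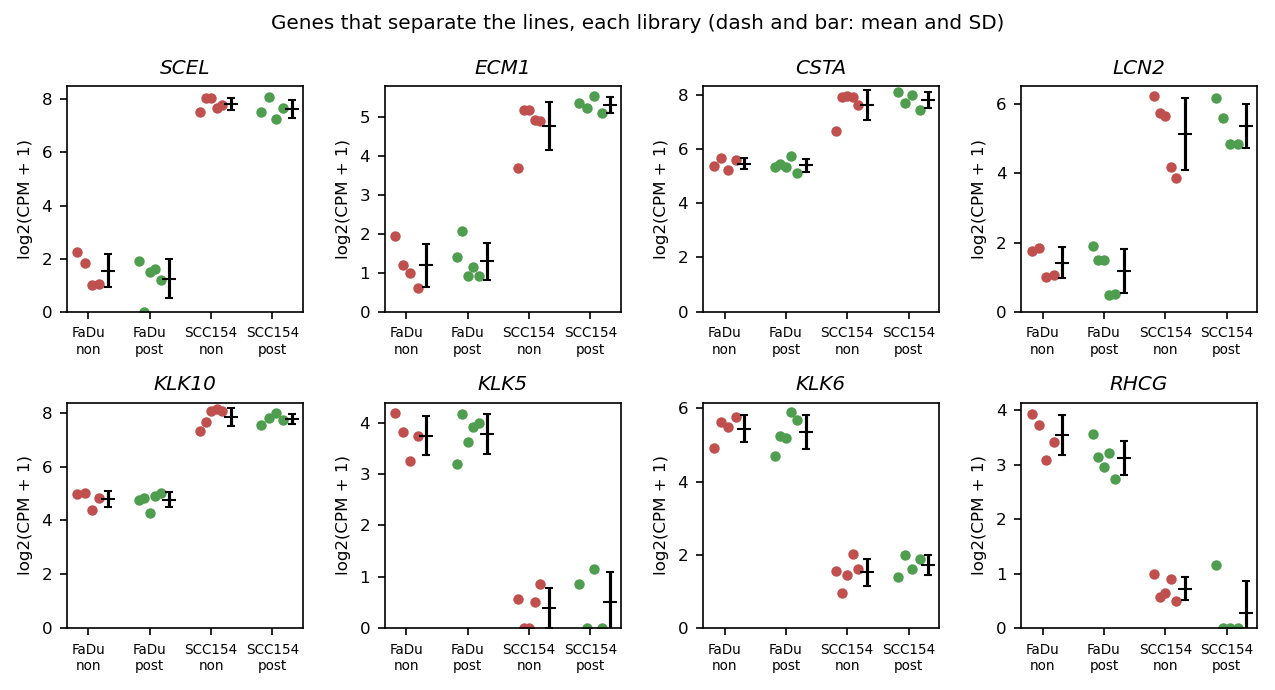
Levels of 8 genes in each library as log2(CPM + 1) on the y axis, by group on the x axis (red non-hypoxic, green post-hypoxic), with a dash and bar for the mean and SD of the log2 values (bars end at 0). SCEL, ECM1, CSTA, LCN2 and KLK10 are higher in all SCC154 libraries, and KLK5, KLK6 and RHCG are higher in all FaDu libraries.

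The calcium-binding proteins also split. S100A14 and S100A16 are neighbours on chromosome 1 and encode S100 proteins of many epithelia. S100A14 (chr1:153614255-153616986) was at 195, 280, 234 and 288 CPM in FaDu and 62.2, 81.2, 89.7, 63.3 and 65.1 CPM in SCC154. S100A16 was at 329, 270, 314 and 360 CPM in FaDu and 180, 155, 170, 171 and 171 CPM in SCC154. Both were lower in every SCC154 library, by -1.79 (SE 0.13, adjusted p = 2.95e-11) and -0.91 (SE 0.10, adjusted p = 4.43e-08) on the log2 scale by edgeR. S100A9, the calprotectin partner of S100A8, was at 0, 0.435, 0 and 1.08 CPM in FaDu, which is 3 counts over the group, and at 15.3, 9.18, 9.78, 7.37 and 7.88 CPM in SCC154. The ratio was 26.9, with a 95% counting interval of 8.94 to 132, and the adjusted p was 2.75e-06 by edgeR. CALML3, a calmodulin-like protein of epithelial cells, was at 35.6, 40.1, 32.9 and 40.4 CPM in FaDu and 85.9, 31.9, 28.8, 38.6 and 36.9 CPM in SCC154. The groups overlapped apart from SCC154 replicate 1, and the difference of 0.25 (SE 0.25) did not pass (adjusted p = 0.376 by edgeR). CALML3-AS1, on the other strand but not at the 3′ end of CALML3, had a mean of 26.0 CPM.

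The transport proteins went in opposite directions. LCN2, the iron-carrier-binding lipocalin 2 (chr9:128149071-128153455), was at 2.38, 2.61, 0.998 and 1.08 CPM in FaDu and 74.5, 52.2, 49.5, 17.4 and 13.7 CPM in SCC154. It varied more within SCC154 than SCEL did, yet all SCC154 libraries were above all of FaDu (log2 difference 4.45, SE 0.58, adjusted p = 4.12e-07 by edgeR). RHCG, an ammonia channel of squamous mucosa, was at 14.3, 12.2, 7.49 and 9.71 CPM in FaDu and 0.987, 0.483, 0.575, 0.868 and 0.415 CPM in SCC154. Its difference was -3.93 (SE 0.43, adjusted p = 2.76e-08 by edgeR), again without overlap.

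The post-hypoxic cells of both lines gave a second comparison, whose group means share no library with the first. Both comparisons came from the same fit of 18 libraries, with a shared estimate of the spread. The cells were also of the same lines, so a repeated call is not separate evidence. All 17 tested members passed, 9 higher and 8 lower in SCC154, against 69.7% of all tested genes, and of the 9 that passed the filter in both lines 9 did, against 66.0% of such genes. The 15 members called in non-hypoxic cells were called again with the same sign, as were 87.3% of all genes called there, and 8 of the 15 had passed the filter through 1 line alone. Of the members that passed it in both lines, 7 of 7 were called again, against 85.3% of such genes. Over all 18 libraries, 13 of the 17 did not overlap between the lines, against 43.4% of the tested genes, but 7 of the 13 had passed the filter through 1 line. Among the 9 that passed it in both lines, 6 did not overlap, against 38.6% of such genes. The members whose lines overlapped were EVPL, DMKN, S100A9 and CALML3.

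Values in the post-hypoxic libraries were mostly close to those in non-hypoxic ones. SCEL was at 2.73, 0, 1.82, 2.06 and 1.32 CPM in FaDu and 181, 273, 152 and 204 CPM in SCC154, a log2 difference of 6.96 (SE 0.29, adjusted p = 1.44e-15 by edgeR). The line difference of SCEL was thus as wide in green as in red cells. On the log2 scale ECM1 differed by 4.59 (SE 0.34), LCN2 by 4.92 (SE 0.56), KLK10 by 3.03 (SE 0.17), CSTA by 2.44 (SE 0.20) and CSTB by 0.94 (SE 0.13). KLK5 differed by -4.40 (SE 0.48), KLK6 by -4.15 (SE 0.31), S100A14 by -1.13 (SE 0.13) and S100A16 by -0.98 (SE 0.11). These 9 had adjusted p-values of at most 5.24e-07 by edgeR. RHCG had 3 counts in the SCC154 post-hypoxic group, all in replicate 2, and was 22.8-fold lower there, with a counting interval of 7.53 to 113.

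The members with small differences were less secure. EVPL (-0.55, SE 0.24, adjusted p = 0.0431), DMKN (-0.45, SE 0.20, adjusted p = 0.0437) and PPL (-0.36, SE 0.14, adjusted p = 0.0248) passed edgeR's test in post-hypoxic cells with all libraries. The call was lost in 8, 9 and 3 of the 18 fits that each left out 1 library, with adjusted p-values of up to 0.163, 0.164 and 0.0881. For EVPL these were SCC154 non-hypoxic replicates 1, 4 and 5, SCC154 post-hypoxic 3 and 5 and FaDu post-hypoxic 2, 4 and 5. For DMKN they were SCC154 non-hypoxic 3, 4 and 5, SCC154 post-hypoxic 2, 3 and 5 and FaDu post-hypoxic 2, 3 and 4, and for PPL SCC154 post-hypoxic 4 and 5 and FaDu post-hypoxic 5. Without SCC154 post-hypoxic replicate 5, 5 members rather than 8 were lower in SCC154. CNFN was at 0, 0.920, 1.36, 0 and 1.32 CPM in FaDu and 6.96, 5.37, 8.20 and 6.81 CPM in SCC154 (3.14, SE 0.54, adjusted p = 2.03e-05 by edgeR). CALML3 was at 26.2, 35.0, 25.9, 36.7 and 33.9 CPM in FaDu and 53.6, 87.1, 54.1 and 48.6 CPM in SCC154. Here its groups did not overlap (0.93, SE 0.24, adjusted p = 0.00167 by edgeR), unlike in non-hypoxic cells. S100A9 was at 1.64, 2.30, 0, 0.825 and 0 CPM in FaDu and 5.32, 5.97, 1.23 and 2.27 CPM in SCC154. Its groups overlapped here, and the difference of 1.89 (SE 0.64, adjusted p = 0.0115 by edgeR) was not called without SCC154 post-hypoxic replicate 2 (adjusted p = 0.054). Whether the line difference of CALML3 itself changed between the sorted populations is the interaction given below.

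The comparison of post-hypoxic with non-hypoxic SCC154 cells asked whether past low oxygen left a mark on these genes. One member, S100A14, was higher in post-hypoxic cells, and the other 16 did not pass. The background was 0.757% of 12291 genes, 0.334% higher and 0.423% lower. S100A14 was at 62.2, 81.2, 89.7, 63.3 and 65.1 CPM in the non-hypoxic and 111, 105, 111 and 98.0 CPM in the post-hypoxic libraries. Every post-hypoxic library was above every non-hypoxic one, and the mean went from 72.3 ± 12.4 to 106 ± 5.99 CPM. The log2 fold change was 0.56 (SE 0.13, adjusted p = 0.0493 by edgeR), next to the threshold. In the 18 fits that each left out 1 library, 11 lost the call, with adjusted p-values from 0.0371 to 0.151 and log2 fold changes from 0.52 to 0.65. They were the fits without SCC154 non-hypoxic replicates 1 to 5, SCC154 post-hypoxic 2, 3 and 4, FaDu non-hypoxic 3 and FaDu post-hypoxic 2 and 3, each singly. The call was also lost when only SCC154 libraries were used (adjusted p = 0.0961 by edgeR). It was lost too without SCC154 non-hypoxic replicate 1 and post-hypoxic replicate 3 together (0.52, adjusted p = 0.0922 by edgeR).

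S100A9 and CALML3, also calcium-binding, had shifts that did not pass in the model of 4 group means. S100A9 was at 15.3, 9.18, 9.78, 7.37 and 7.88 CPM in non-hypoxic and 5.32, 5.97, 1.23 and 2.27 CPM in post-hypoxic SCC154 cells. The groups did not overlap, as for 5.55% of all tested genes, but the log2 difference of -1.45 (SE 0.43) had an adjusted p of 0.109 by edgeR, and the post-hypoxic libraries held 3 to 13 counts each. CALML3 was at 85.9, 31.9, 28.8, 38.6 and 36.9 CPM in non-hypoxic and 53.6, 87.1, 54.1 and 48.6 CPM in post-hypoxic cells. SCC154 non-hypoxic replicate 1 lay within the range of the post-hypoxic libraries, and with it the difference was 0.44 (SE 0.24, adjusted p = 0.377 by edgeR). Without it the difference was 0.82 (SE 0.18, adjusted p = 0.0333 by edgeR). Without it and SCC154 post-hypoxic replicate 3 together, the difference was 0.61 (adjusted p = 0.0609 by edgeR). With a replicate block inside each line both passed by edgeR (S100A9 -1.27, adjusted p = 0.0236, and CALML3 0.78, adjusted p = 0.002). That model draws the shift from same-numbered pairs, so that SCC154 non-hypoxic replicate 1, which has no partner, does not enter it. For CALML3 it is thus not separate from the fit without that library (0.82). S100A9 also passed by edgeR without the count filter (-1.44, adjusted p = 0.0212). In the 4 same-numbered pairs of SCC154, S100A9 was lower in 4 and CALML3 higher in 4 post-hypoxic libraries. Other members did the same, since ECM1, CSTB and S100A14 were higher in 4 and KLK10 and S100A16 higher in 0. The share over all genes was not computed, and whether the numbers pair these libraries was not settled.

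The remaining members stayed within the spread of their libraries in SCC154. The precursors SCEL and PPL differed by -0.17 (SE 0.17) and 0.23 (SE 0.14), the inhibitors CSTA and CSTB by 0.14 (SE 0.19) and 0.24 (SE 0.12), KLK10 by -0.09 (SE 0.15) and LCN2 by 0.08 (SE 0.36). ECM1 had 0.47 (SE 0.23), with an adjusted p of 0.316 by edgeR. The median log2 difference over the 17 members was 0.12, against 0.00 over all tested genes. RHCG and KLK5 had too few counts in SCC154 for a shift to be detectable, as their standard errors of 0.84 and 0.90 show.

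**Figure D4:**
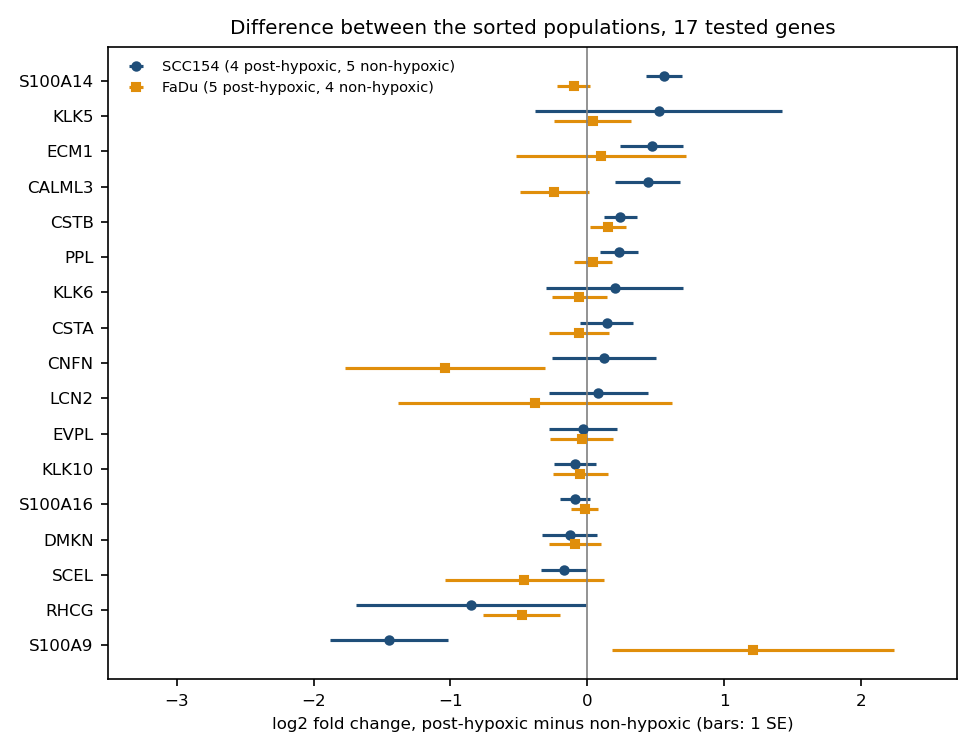
Log2 fold change (x axis) of post-hypoxic minus non-hypoxic cells for the 17 tested genes (y axis) in SCC154 (blue circles) and FaDu (orange squares), from edgeR, with bars of 1 standard error. S100A14 in SCC154, at 0.56, is the one value that passed the test, and S100A9 lies at -1.45 in SCC154 and 1.21 in FaDu with wide bars.

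In FaDu no member differed between the sorted populations by edgeR's test: 0 of 17 passed, as did 0 of all 12291 genes (0.0%). At an unadjusted edgeR p under 0.05 there were 298 of 12291 genes and 0 of 17 members. DESeq2 called 3 genes and 0 members, and with a replicate block inside each line edgeR called 7 genes (0.057%) and 0 members. S100A14 was at 195, 280, 234 and 288 CPM in non-hypoxic and 200, 218, 217, 259 and 264 CPM in post-hypoxic FaDu cells, with full overlap and a log2 difference of -0.10 (SE 0.12). CSTB was at 151, 146, 155 and 148 CPM against 170, 173, 167, 162 and 162 CPM. Its groups did not overlap, as for 1.07% of all genes, and the difference was 0.15 (SE 0.13, adjusted p = 1.0 by edgeR). The median over the 17 members was -0.06, against -0.00 over all genes.

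Whether the lines differed in their shift was tested by the interaction (the SCC154 shift minus the FaDu shift). No member of 17 passed, and 0.0163% of all genes did, which is 2 genes. At an unadjusted edgeR p under 0.05 there were 2 of 17 members, beside 1202 of 12291 genes. The values were 0.66 for S100A14 (SE 0.18, adjusted p = 0.269), 0.68 for CALML3 (SE 0.35, adjusted p = 0.534) and -2.66 for S100A9 (SE 1.13, adjusted p = 0.455), all by edgeR. A shift of S100A14 in SCC154 alone was therefore not shown. With a replicate block inside each line, S100A14 (0.67, adjusted p = 0.0147) and CALML3 (1.05, adjusted p = 0.0176) passed by edgeR, as did 1.82% of all genes. That model draws the shifts from same-numbered libraries alone, and whether the SCC154 numbers pair libraries was not settled.

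**Figure D5:**
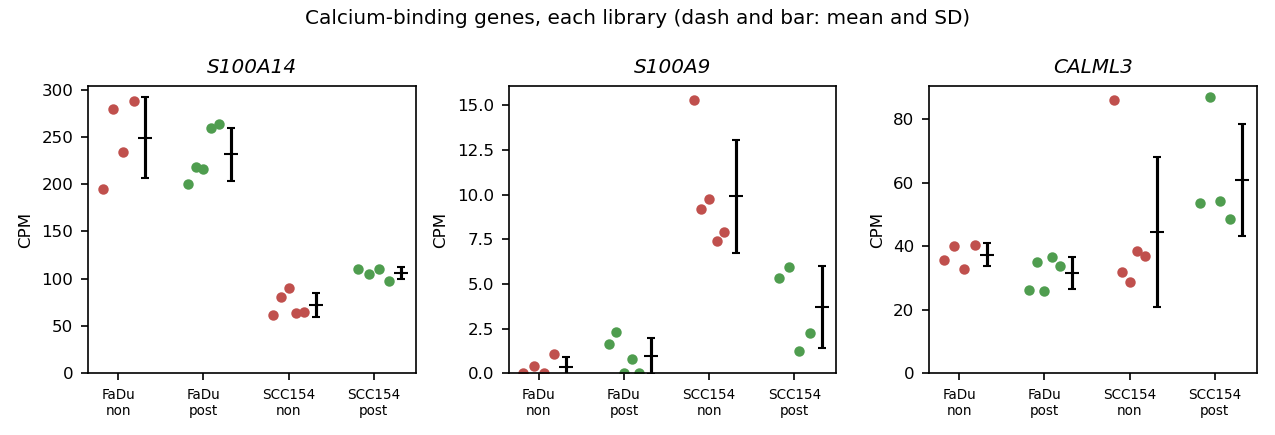
CPM (y axis) of S100A14, S100A9 and CALML3 in each library by group (x axis; red non-hypoxic, green post-hypoxic), with a dash and bar for the mean and SD (bars end at 0). In SCC154 the post-hypoxic libraries lie above the non-hypoxic ones for S100A14 and below them for S100A9, and 1 non-hypoxic CALML3 value of 85.9 CPM stands with the post-hypoxic ones.

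Other genes of the same biology were taken from 3 further lists, of the epidermal differentiation complex, of the barrier and of transcriptional regulators. Of 39 other genes of the complex, 9 were tested, and 4 were higher and 2 lower in non-hypoxic SCC154 than in FaDu, with a median log2 difference of 0.27 (all tested genes: 34.5% higher, 34.5% lower, median -0.01). FLG and TCHH passed the count filter through SCC154 alone, which favours a difference. TCHH was still not called (0.48, SE 0.38, adjusted p = 0.264 by edgeR). Of the 7 that passed it in both lines 5 were called, against 65.1% of such genes. FLG, which encodes filaggrin, the keratin-bundling protein of the granular layer, was at 70.6, 139, 120, 125 and 175 CPM in SCC154 and had 4 counts in all of FaDu non-hypoxic. It was far above FaDu in every SCC154 library, with a ratio of 264 and a counting interval of 103 to 969, while its envelope neighbours IVL and the SPRR genes stayed at traces. FLG-AS1 spans FLG on the other strand, and with the strand setting unknown their reads could not be told apart. S100A6 (1.21, SE 0.10, adjusted p = 3.84e-10) was higher, and S100A2 (-1.18, SE 0.16, adjusted p = 4.47e-07) and S100A4 (-1.28, SE 0.36, adjusted p = 0.00286) were lower by edgeR, all of them calcium-binding S100 proteins. For S100A4 the groups overlapped, since FaDu replicate 1 was at 6.18 CPM and SCC154 libraries reached 8.68 CPM.

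Of 43 other barrier genes, 15 were tested, 7 higher and 6 lower in non-hypoxic SCC154, with a median of 0.52, against the same 68.9% of all genes called and median of -0.01. LY6D, KLK13, CST6 and SERPINB13 passed the filter through FaDu alone and SERPINB2 through SCC154 alone. Of the other 10, which passed it in both lines, 8 were called, against 65.1%. LY6D, a surface protein of squamous epithelium, was at 99.8, 179, 79.9 and 134 CPM in FaDu and at 0, 0.967, 0.575, 1.74 and 0.829 CPM in SCC154. It ran opposite to FLG, with a log2 difference of -7.09 (SE 0.37, adjusted p = 8.1e-14 by edgeR). KLK13, another kallikrein of the cluster on chromosome 19, had 38 counts in FaDu and 1 in SCC154, a ratio of 48.6 with an interval of 8.20 to 1970. TMPRSS4, a serine protease of the cell membrane, was at 66.1 ± 12.2 CPM in SCC154 and 6.65 ± 2.50 CPM in FaDu (3.28, SE 0.31, adjusted p = 2.45e-09 by edgeR). SERPINB2, a serpin that inhibits urokinase, had no count in FaDu non-hypoxic cells and was at least 14.9-fold higher in SCC154 (against 3 counts over the group).

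Of 31 regulators, 25 were tested, 10 higher and 10 lower in non-hypoxic SCC154, with a median of -0.06, against 68.9% of all genes called. EHF and PRDM1 passed the filter through SCC154 alone, and of the 23 regulators that passed it in both lines 18 were called, against 65.1%. EHF, an epithelial ETS factor, was at 522 ± 69.6 CPM in SCC154 and 2.91 ± 0.780 CPM in FaDu (7.46, SE 0.33, adjusted p = 4.66e-15 by edgeR). PRDM1, which encodes the transcriptional repressor BLIMP1, had no count in FaDu and was at least 55.3-fold higher in SCC154, where it was at 17.3, 18.4, 21.8, 20.4 and 22.4 CPM. ATG5, on the other strand, covers the 3′ end of PRDM1 and had a mean of 21.7 CPM. FOSL1, a subunit of AP-1, was at 147, 58.8, 118 and 133 CPM in FaDu and 19.7, 18.4, 16.1, 16.05 and 23.6 CPM in SCC154 (-2.59, SE 0.23, adjusted p = 9.5e-10 by edgeR). Other AP-1 subunits of the list went the other way. FOSL2 (1.22, SE 0.17, adjusted p = 9.75e-07) and JUNB (1.05, SE 0.14, adjusted p = 4.15e-07) were higher in SCC154 by edgeR, without overlap. The receptor NOTCH2 was at 65.0 ± 9.82 CPM in FaDu and 15.6 ± 1.33 CPM in SCC154 (-2.06, SE 0.16, adjusted p = 6.84e-11 by edgeR). In post-hypoxic cells of the lines, 6 and 3 of 9 tested genes of the complex, 7 and 6 of 15 barrier genes, and 10 and 8 of 25 regulators were higher and lower in SCC154, against 34.8% and 34.9% of all tested genes.

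Between the sorted populations, 1 gene of these lists passed. ST14, the membrane protease matriptase that takes part in filaggrin processing, was at 124, 101, 101, 113 and 101 CPM in non-hypoxic and 153, 149, 148 and 154 CPM in post-hypoxic SCC154 libraries. All post-hypoxic libraries were above all non-hypoxic ones (0.49, SE 0.10, adjusted p = 0.0289 by edgeR), against 0.334% of all genes higher. The call was lost in 5 of the 18 fits without 1 library (SCC154 non-hypoxic 2, 3 or 5, or post-hypoxic 2 or 4), with an adjusted p of up to 0.0823, and with only the SCC154 libraries. FLG was at 132, 122, 221 and 233 CPM in post-hypoxic SCC154 cells and did not pass (0.49, SE 0.21, adjusted p = 0.263 by edgeR). No gene of the 3 lists passed in FaDu or in the interaction.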

How the data were processed

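The authors deposited 1 table of whole-number counts per gene symbol from QuantSeq 3′ libraries of 18 samples. Per the submitters' processing notes, HISAT2 2.2.1 (build hg38) and featureCounts 1.5.1 were used, with FastQC 0.11.9, Trimmomatic 0.39 and UMI-tools 1.1.5 also named. The sources used here give no settings, strand option or annotation. Columns were matched to samples by library names. Counts were tested with edgeR 4.0.16 (R 4.3.3): filterByExpr with the 4 groups, TMM factors, 1 quasi-likelihood model of 4 group means over 18 libraries, Benjamini-Hochberg adjustment over 12291 genes and an adjusted p under 0.05. The fit had 14 residual degrees of freedom and a common biological variation of 0.148. The code was tested on simulated counts. Intervals are exact (Clopper-Pearson), at 95%, and cover counting error only, as do floors of 3 counts. Among 32 replicate pairs the chi-square per degree of freedom was 1.77 to 10.7, so all libraries were counted singly. Same-numbered FaDu libraries had positive correlations of their deviations in all 4 pairs (0.178 to 0.447). For SCC154 the correlations were 0.0292 to 0.398, with 1 pair under 0.1. The own number gave the best match for 2 of 4 FaDu and 3 of 4 SCC154 libraries, so that pairing was not settled in either line. The main model holds no replicate block, and the FaDu values with the block stand beside its results. DESeq2 1.42.0 and upper-quartile factors, no filter, replicate blocks, single-line fits, summed close copies and leaving out each library were the alternatives. Leaving out SCC154 non-hypoxic replicate 1 and post-hypoxic replicate 3 together was added after seeing the data. Each had the lowest correlation within its own group, though not the lowest of all SCC154 libraries in both cases. The members and lists were chosen with earlier results of these data known. Full statistics were given by rule to called members, or to the 3 largest per direction and role where more than 10 were called, and to the 2 largest called genes per direction of each list. Other members are named with their values, and other genes after their values were seen.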

Additional observations from a re-analysis of the deposited data

Results flagged for a closer look

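In 5 of 68 groups of 4 or 5 libraries, 1 library stood far from the others by Dixon's test for a tested member, where chance gives about 1 in 20. EVPL was at 24.0 CPM in FaDu non-hypoxic replicate 2 and at 10.8 to 12.8 CPM in the others. ECM1 was at 11.8 CPM in SCC154 non-hypoxic replicate 1 and at 29.0 to 35.3 CPM in the others. CALML3 was at 85.9 CPM in the same library, against 28.8 to 38.6 CPM, and at 87.1 CPM in SCC154 post-hypoxic replicate 3, against 48.6 to 54.1 CPM. RHCG was at 1.23 CPM, 3 counts, in SCC154 post-hypoxic replicate 2 and at 0 in the others.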

How the results depend on the processing

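No difference that was recomputed reversed. These were the members called or named in each comparison and the list genes named between non-hypoxic lines or in SCC154, each under up to 26 alternatives. TCHH, FOSL2 and JUNB, and FLG between the SCC154 populations, were not among them. Of the 15 members called between non-hypoxic lines, 14 kept the call in every alternative that could be fitted, EVPL being the exception, and of the 17 called between post-hypoxic lines 13 did, the exceptions being EVPL, PPL, DMKN and S100A9. S100A14 between the SCC154 populations did not. Without any filter on low counts, S100A7, S100A8 and KLK7 also passed between non-hypoxic lines, and SPRR1B, SERPINB3, SERPINB4 and KLK7 between post-hypoxic lines. In that setting 1 member (S100A9) was lower in post-hypoxic SCC154 cells, and 291, 10 and 51 genes passed in SCC154, in FaDu and in the interaction. DESeq2 gave 207, 3 and 21 genes. A replicate block shared by the lines gave 243 genes in SCC154 and 5 in the interaction. A replicate block within each line gave 1052 genes in SCC154 with 2 members higher (S100A14 0.52, adjusted p = 0.00277, and CALML3 0.78, adjusted p = 0.002, by edgeR) and 1 lower (S100A9 -1.27, adjusted p = 0.0236), 7 genes and 0 members in FaDu, and 224 genes with 2 members higher in the interaction. In SCC154, 3 of 4 libraries correlated best with their own number, and in FaDu 2 of 4 did. Libraries without a same-numbered partner do not enter the shift in the model with a block within each line. With only the SCC154 libraries 22 genes and 0 members passed, and 0 members without SCC154 non-hypoxic replicate 1 and post-hypoxic replicate 3 together. Leaving out 1 library gave 5 to 8 members lower between post-hypoxic lines (5 without SCC154 post-hypoxic replicate 5), 0 to 1 members higher and 20 to 190 genes in SCC154, and 0 to 1 genes in FaDu. Asking for at least 10 counts in a group left 18, 20, 22 and 18 members detected. Depth limits the 19 untested members, whose totals of at most 56 counts allow no call on modest differences.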
